A study of Mus musculus with 3 samples.

Results

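The 10 genes described here are *Trem2* and its partner *Tyrobp*, together with the lipid-handling and damage-response genes *Apoe*, *Lpl*, *Cst7*, *Ch25h*, *Spp1*, *Gpnmb*, *Fabp5* and *Abca1*. They were chosen by name, and all 10 were found among the 31053 genes of the count tables. The data are single-cell RNA sequencing (scRNA-seq) libraries of viable cells, sorted from brain tissue next to where the tumor cells were injected. The mice were female wild-type C57BL/6 animals, obtained at 6 to 8 weeks of age, and carried syngeneic BT0309 brain tumor-initiating cells in the right striatum. BT0309 is 1 cell line, made from the Trp53 and Nf1 mutant NPcis mouse, so every library models the same tumor genotype. One library came from mice given saline (vehicle 2) and 2 came from mice given niacin intraperitoneally at 100 mg/kg daily from day 7 (niacin 1 and niacin 2), all collected 4 weeks after implantation. Each library was a pool of 5 mice by the methods, whereas the labels describe 4 pooled brain tissues, and cells could not be traced to single mice. With 1 vehicle library, niacin was not tested against vehicle, and the tests below compare cell classes over the 3 libraries.

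TREM2 is a microglial and macrophage surface receptor for lipids and lipoproteins, and TYROBP (DAP12) is the adaptor that carries its signal into the cell through SYK. APOE is a lipoprotein that TREM2 binds, LPL hydrolyzes lipoprotein triglycerides, FABP5 carries fatty acids inside the cell, ABCA1 exports cholesterol to lipoproteins, and CH25H makes 25-hydroxycholesterol. CST7 is a cystatin that inhibits cathepsins, SPP1 (osteopontin) is a secreted matrix protein and GPNMB is a lysosomal glycoprotein. In neurodegeneration and demyelination, microglia that turn on this program are known as disease-associated microglia, and tumor macrophages carry part of it too.

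Each captured RNA molecule was counted once by its unique molecular identifier (UMI), and levels are given as CPM, the UMIs of a gene per 1000000 UMIs of a cell class in a library. Cells were placed in classes by the UMIs of lineage markers, none of which is among the 10 genes, and cells with at least 2 cell cycle genes were set apart as cycling. Microglia numbered 405 cells in vehicle 2, 848 in niacin 1 and 992 in niacin 2, with medians of 3461, 4798.5 and 4243 UMIs per cell. Monocytes and macrophages, called macrophages below, numbered 282, 76 and 72 cells, with medians of 6863, 7180 and 7544 UMIs. Cycling microglia numbered only 24, 3 and 9 cells. All 12 microglia markers were detected in the microglia of each library, where their summed level was 17822, 21721 and 22255 CPM, against 455, 360 and 388 CPM in macrophages. The summed level of the 18 macrophage markers was 9377, 4697 and 5176 CPM in macrophages and 291, 172 and 187 CPM in microglia, with 17, 15 and 14 of the 18 detected there.

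The libraries were not equal in quality. They hold 8301228, 9373321 and 10359526 UMIs, and barcodes had a median of 8.85% mitochondrial UMIs in vehicle 2 against 3.08% and 3.29% in the niacin libraries (3.21%, 1.87% and 2.48% in the microglia kept). Of the 5571 different cell barcodes, 924 were called in at least 2 libraries and 452 in all 3, and the library with the next highest count held a median of 6.37% of the UMIs of the top library. Such a barcode was kept only in its top library, and 75 barcodes with at least 25% in another library were left out. Cells that decide a value on their own often carry such barcodes, as given below.

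Promoters are shown for the genes in which a motif match was found, as described below. These are *Trem2* and *Abca1*, which were higher in microglia, and *Spp1* and *Gpnmb*, which were higher in macrophages than in microglia of the vehicle library. The sequences are the 250 bases before the start site in RefSeq (GRCm38.p6), written 5′ to 3′ on the strand of the gene, at chr17:48346151-48346400 (plus strand) for *Trem2*, chr4:53159896-53160145 (minus strand) for *Abca1*, chr5:104434861-104435110 (plus strand) for *Spp1* and chr6:49036268-49036517 (plus strand) for *Gpnmb*. Capitals mark matches to 1 of 5 motifs searched on both strands, which are AGGTCA (a nuclear receptor half-site), CACGTG (an E-box), CATGTG (the core of the M-box), GAGGAAGT (PU.1) and TGACTCA (AP-1).
Trem2: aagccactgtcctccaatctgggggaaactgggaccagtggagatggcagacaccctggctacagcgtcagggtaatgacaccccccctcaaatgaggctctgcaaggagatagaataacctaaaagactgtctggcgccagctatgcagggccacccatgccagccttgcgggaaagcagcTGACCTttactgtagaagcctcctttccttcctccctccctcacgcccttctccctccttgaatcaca
Abca1: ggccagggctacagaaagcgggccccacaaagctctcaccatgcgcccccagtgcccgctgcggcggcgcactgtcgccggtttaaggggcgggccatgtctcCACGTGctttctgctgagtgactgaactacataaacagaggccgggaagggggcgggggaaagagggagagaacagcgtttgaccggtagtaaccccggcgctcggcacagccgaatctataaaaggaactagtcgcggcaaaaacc
Spp1: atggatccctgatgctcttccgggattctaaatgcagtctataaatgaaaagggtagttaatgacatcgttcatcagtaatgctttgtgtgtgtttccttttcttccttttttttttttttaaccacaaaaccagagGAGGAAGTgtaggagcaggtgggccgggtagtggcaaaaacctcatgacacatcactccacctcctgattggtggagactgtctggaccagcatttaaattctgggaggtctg
Gpnmb: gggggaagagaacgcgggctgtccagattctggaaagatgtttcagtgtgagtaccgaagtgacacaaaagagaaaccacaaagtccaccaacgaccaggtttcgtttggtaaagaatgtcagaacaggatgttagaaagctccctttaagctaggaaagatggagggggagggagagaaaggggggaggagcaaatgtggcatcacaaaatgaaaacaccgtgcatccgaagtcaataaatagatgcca
The *Trem2* window holds the half-site on the opposite strand, 68 bases before the start, a motif found in 16.3% of the 32851 promoter windows of the genome, each 250 bases before to 50 after a start. The *Abca1* window holds the E-box 147 bases before the start (7.15% of windows), and the *Spp1* window printed holds the PU.1 letters 113 bases before it (3.20%). Another *Spp1* window, at chr5:104435942-104436191, held no match. *Gpnmb* has the AP-1 letters 8 bases after the start, outside the stretch printed (5.20%). The M-box core, found in 14.2% of windows, was in no window of the 10 genes, and none of the 5 motifs was in the windows of *Apoe*, *Cst7* or *Ch25h*. Windows were found for 7 of the 10 genes, not for *Tyrobp*, *Lpl* or *Fabp5*. A match describes letters in the sequence and not binding.

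On GRCm38 (GENCODE M21) the genes do not form a cluster. *Trem2* lies at chr17:48346401-48354147, *Tyrobp* at chr7:30413760-30417585, *Apoe* at chr7:19696109-19699188, *Lpl* at chr8:68880491-68907448, *Cst7* at chr2:150570415-150578944, *Ch25h* at chr19:34473778-34475164, *Spp1* at chr5:104435118-104441050, *Gpnmb* at chr6:49036546-49070929, *Fabp5* at chr3:10012548-10016607 and *Abca1* at chr4:53030787-53159895.

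The first question was where each gene is expressed. *Trem2*, *Abca1* and, at a low level, *Cst7* were higher in microglia than in macrophages, and *Fabp5*, *Apoe* and, more weakly, *Tyrobp* were higher in macrophages. The receptor itself was close to a microglial gene. *Trem2* reached 1211 CPM in microglia of vehicle 2, 2000 CPM in niacin 1 and 1963 CPM in niacin 2, and 76.8, 84.7 and 94.8 CPM in macrophages. The classes did not overlap, and the lowest microglial level was above the highest macrophage level. Of all *Trem2* UMIs of kept cells, 82.7%, 97.0% and 96.4% lay in microglia. The adaptor *Tyrobp* was shared among myeloid cells, with 1477, 1980 and 2083 CPM in microglia, 1617, 3239 and 3037 CPM in macrophages and 2817, 2655 and 2179 CPM in neutrophils.

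Among the lipid genes, *Apoe* was at 1329, 1729 and 1791 CPM in microglia and at 3772, 3632 and 4652 CPM in macrophages, again without overlap. The choroid plexus, an epithelium that secretes cerebrospinal fluid, held *Apoe* at 1283, 3508 and 2923 CPM. In the niacin libraries microglia and choroid plexus together held most *Apoe* UMIs (51.9% and 49.1% in microglia, 26.9% and 14.6% in choroid plexus), whereas macrophages held 63.2% of them in vehicle 2. The exporter *Abca1* was at 399, 318 and 285 CPM in microglia and at 45.0, 43.2 and 26.0 CPM in macrophages. *Fabp5* went the other way, with 755, 107 and 82.6 CPM in macrophages and 52.2, 8.03 and 5.55 CPM in microglia of the same libraries.

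*Lpl* was at 80.1, 33.3 and 18.2 CPM in microglia and at 68.2, 39.8 and 109 CPM in macrophages, and the classes overlapped. *Cst7* was at 46.9, 8.27 and 10.7 CPM in microglia and at 7.27, 0 and 4.59 CPM in macrophages, and T cells held it at 74.5, 85.2 and 105 CPM. *Spp1* was at 20.5, 23.6 and 1.33 CPM in microglia and at 195, 6.92 and 0 CPM in macrophages. *Gpnmb* was at 44.9, 0 and 3.99 CPM in microglia and at 165, 0 and 1.53 CPM in macrophages. *Ch25h* was at 67.4, 1.46 and 10.9 CPM in microglia and at 4.55, 0 and 3.06 CPM in macrophages. The ranges of both classes overlapped for *Lpl*, *Spp1*, *Gpnmb* and *Ch25h*, and for *Cst7* the lowest microglial level lay just above the highest macrophage level.

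**Figure D1:**
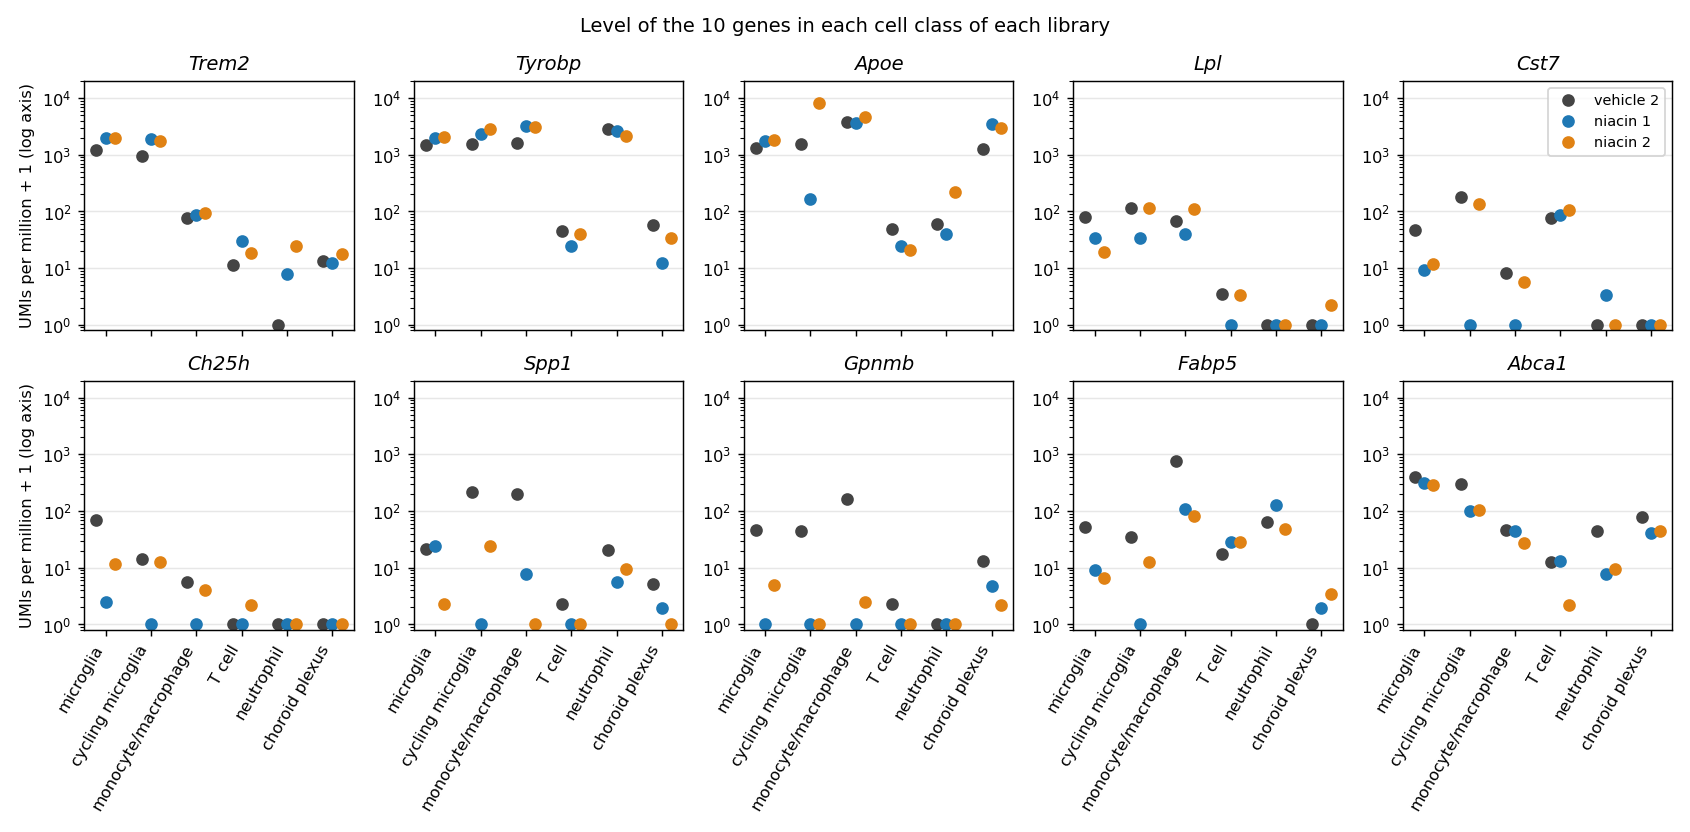
Level of each gene (CPM plus 1, log axis) in 6 cell classes, with 1 point per library (dark gray, vehicle 2; blue, niacin 1; orange, niacin 2). *Trem2* and *Abca1* stand highest in microglia in all 3 libraries, *Fabp5* in macrophages of vehicle 2 and niacin 2 (in niacin 1 neutrophils are slightly higher), and *Spp1* and *Gpnmb* spread widely among libraries.

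Among the 6 classes that held 10 or more cells in each library, mean *Trem2* was 1724 ± 446 CPM in microglia (SD, n = 3 libraries), 85.5 ± 9.02 CPM in macrophages and between 10.1 and 20.2 CPM in the other classes. Their order was B cells, T cells, choroid plexus and neutrophils, and neighbors in it overlapped. *Abca1* ranked microglia first (334 ± 58.7 CPM), then B cells (78.6 ± 18.1 CPM) and choroid plexus (53.9 ± 20.9 CPM), and the last pair overlapped. *Apoe* ranked macrophages (4019 ± 553 CPM), choroid plexus (2571 ± 1153 CPM) and microglia (1616 ± 251 CPM), and choroid plexus overlapped with microglia. Mean *Tyrobp* was 2631 ± 884 CPM in macrophages, 2550 ± 332 CPM in neutrophils and 1847 ± 325 CPM in microglia, with overlap between macrophages and the other two. *Cst7* ranked T cells (88.3 ± 15.6 CPM) before microglia (21.9 ± 21.6 CPM).

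The share of cells with a UMI gave the same picture once every cell was thinned to 2000 UMIs, with T cells as a class that should lack *Trem2*. *Trem2* was seen in 82.9%, 95.7% and 94.7% of microglia, in 9.86%, 9.52% and 15.9% of macrophages and in 2.91%, 9.21% and 3.60% of T cells. Macrophages of niacin 1 were thus at the T cell share, so the share did not set them apart from T cells. Their *Trem2* level of 84.7 CPM was nevertheless above the highest T cell level of any library (29.0 CPM). Thinning left out 147, 196 and 348 microglia, 69, 13 and 9 macrophages and 36, 41 and 20 T cells, whose unthinned median was 5346, 5395 and 6392 UMIs. Without thinning, 75.8%, 93.2% and 86.4% of microglia had a *Trem2* UMI. *Apoe* was seen in 36.4%, 31.3% and 33.9% of thinned microglia, in 73.7%, 82.5% and 81.0% of macrophages and in 6.80%, 3.95% and 5.41% of T cells. *Cst7* was seen in 6.20%, 0.613% and 0.776% of microglia and in 14.6%, 17.1% and 19.8% of T cells. *Lpl* was seen in 6.98%, 3.68% and 3.57% of microglia and in 0%, 0% and 0.901% of T cells, and *Fabp5* in 27.7%, 11.1% and 6.35% of macrophages against 4.85%, 2.63% and 2.70% of T cells.

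UMI sums of microglia and macrophages were tested over 10055 genes by edgeR's quasi-likelihood method with Benjamini-Hochberg adjustment, and the library entered the fit as a block. The p-values measure the spread among 3 pooled libraries. Of all genes tested, 2118 were higher in microglia (21.1%) and 2204 lower (21.9%). Of the 10 genes, 8 passed the filter on low counts, of which 3 were higher and 3 lower, and *Ch25h* and *Gpnmb* were not tested. *Trem2* was 16.2-fold higher in microglia (log2 fold change 4.02, SE 0.22, adjusted p = 0.00015). *Abca1* was 7.31-fold higher (log2 2.87, SE 0.21, adjusted p = 0.00027) and *Cst7* 4.47-fold higher (log2 2.16, SE 0.49, adjusted p = 0.014). *Fabp5* was 17.2-fold higher in macrophages (log2 -4.11, SE 0.20, adjusted p = 0.00012), *Apoe* 3.02-fold (log2 -1.59, SE 0.19, adjusted p = 0.0012) and *Tyrobp* 1.67-fold (log2 -0.74, SE 0.17, adjusted p = 0.016). Each of these 6 had its direction in 3 of 3 libraries. *Lpl* (log2 -1.11, SE 0.53, adjusted p = 0.14) and *Spp1* (log2 -1.67, SE 1.06, adjusted p = 0.24) did not pass.

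*Trem2*, *Abca1*, *Apoe* and *Fabp5* passed in 16 of 16 alternatives. *Tyrobp* lost its call without niacin 1 (adjusted p = 0.16), without niacin 2 (0.22) and in 4 others, and *Cst7* without vehicle 2 (0.074) and without the library block (0.16). *Spp1* turned to a log2 of 1.62 without vehicle 2 (adjusted p = 0.06) and to 0.16 without *Arg1* macrophages, and was called lower in microglia without niacin 1 (log2 -3.11, adjusted p = 0.0065). Over all alternatives *Spp1* was called lower in microglia in 4 of 14. *Lpl* was called lower in 3 of 16, which were without vehicle 2 (log2 -1.80), without microglia that hold macrophage marker UMIs (log2 -1.89) and without nonclassical and *Cd209a* cells (log2 -1.58). When microglia with any macrophage marker UMI (1030 of 2245) were left out, *Apoe* in microglia was at a mean of 962 ± 245 CPM in place of 1616 ± 251 CPM, and *Trem2* at 1680 ± 393 CPM in place of 1724 ± 446 CPM.

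**Figure D2:**
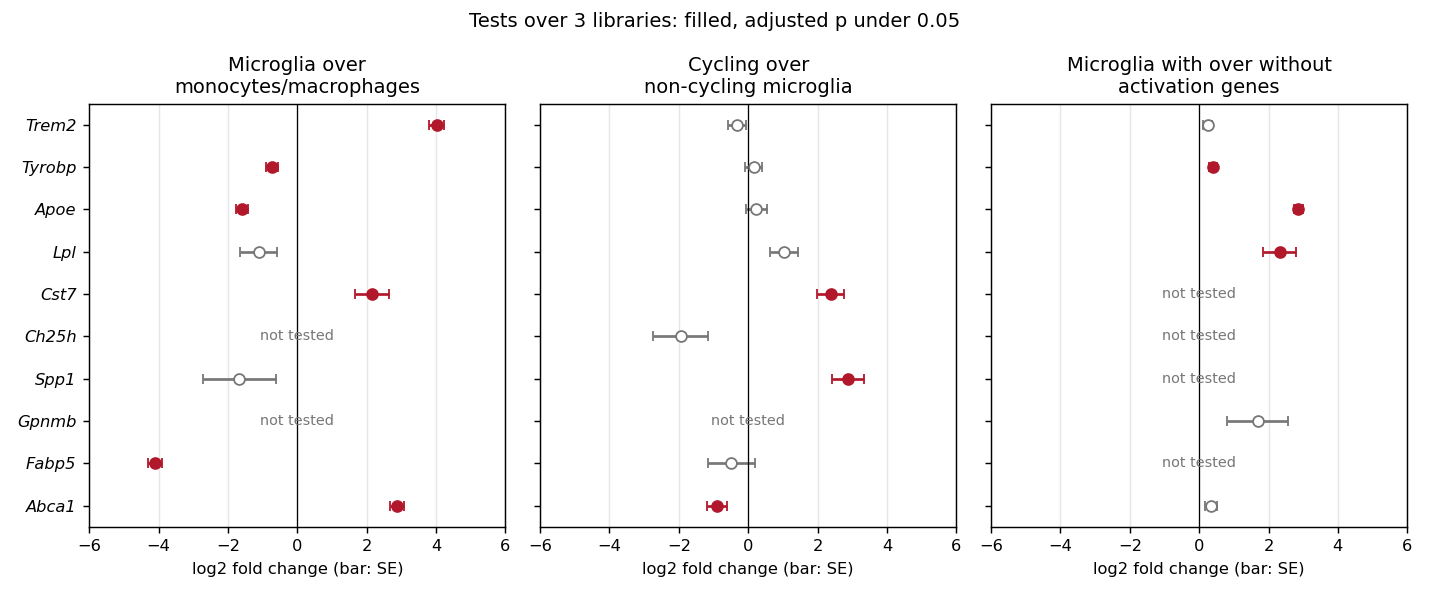
Log2 fold change with its SE for each gene in 3 tests over 3 libraries (left, microglia over macrophages; middle, cycling over other microglia; right, microglia with over without activation genes), filled where the adjusted p was under 0.05. *Trem2* and *Abca1* lie far to the right and *Fabp5* far to the left in the left panel, and *Apoe* and *Lpl* to the right in the right panel.

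The other genes of these pathways split between the classes by list. Of 20 TREM2 signaling genes tested, 5 were higher in microglia and 10 lower, with a median log2 of -0.56 against 0.08 over all genes. The receptor gene *Cd33* (362 ± 28.3 against 39.0 ± 45.0 CPM, log2 3.26) and the phosphoinositide 3-kinase subunit *Pik3r1* (561 ± 15.4 against 84.0 ± 18.0 CPM, log2 2.47) were the microglial genes with the largest change. The exchange factor *Vav3* was higher in macrophages (79.0 ± 16.2 against 1.21 CPM), and the signal regulatory gene *Sirpb1a* had no UMI in microglia and was at least 121-fold higher in macrophages.

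Of 25 other disease-associated microglia genes tested, 8 were higher in microglia and 10 lower (median log2 0.14). *Serpine2*, a protease inhibitor (357 ± 49.5 against 0.758 ± 1.31 CPM, log2 7.80), and the adhesion gene *Cadm1* (log2 4.57) rose most in microglia. *Lgals3*, which encodes galectin-3 (883 ± 40.1 against 21.7 ± 19.8 CPM in microglia, log2 -5.98), and the transcription factor *Bhlhe40* (log2 -5.61) lay furthest toward macrophages.

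Lipid genes beyond the 10 were mostly higher in macrophages. Of 12 cholesterol synthesis genes tested, 11 were lower in microglia and 0 higher (median log2 -2.30), among them the isoprenoid enzyme *Idi1* (5.94 ± 3.90 against 59.0 ± 24.8 CPM). Of 7 lipoprotein and uptake genes, 1 was higher (the receptor chaperone *Lrpap1*, log2 0.76) and 5 lower (median log2 -2.77), with the scavenger receptors *Cd36* (log2 -5.79) and *Msr1* (log2 -5.00) lowest. Of 15 cholesterol efflux and liver X receptor genes, 3 were higher and 4 lower. *Mylip*, a ubiquitin ligase that is a target of liver X receptors, was at 307 ± 9.60 CPM in microglia and 28.8 ± 1.56 CPM in macrophages, and the phospholipid enzyme *Lpcat3* was also higher (log2 1.96). The liver X receptor gene *Nr1h3* (1.57 ± 0.994 against 47.1 ± 22.3 CPM) and the lipid transfer gene *Pltp* (log2 -4.35) were lower. Of 15 fatty acid and lipid droplet genes, 1 was higher and 6 lower. The lipase *Mgll* had no UMI in macrophages and was at least 97.8-fold higher in microglia, while the nuclear receptor *Pparg* (log2 -9.02) and the fatty acid carrier *Fabp4* (log2 -8.72) were nearly absent from microglia.

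The macrophages were not one population, and their makeup differed among the libraries. Classical monocytes numbered 195, 10 and 19 cells, nonclassical monocytes 19, 59 and 47, and *Arg1* macrophages 55, 0 and 1, in the order vehicle 2, niacin 1 and niacin 2. *Spp1* lay mostly in the *Arg1* macrophages of vehicle 2, with 681 CPM (389 of the 430 macrophage UMIs) against 29.3 CPM in classical and 0 CPM in nonclassical monocytes of that library. One cell held 201 of these UMIs, and its barcode was called in all 3 libraries. *Fabp5* was at 1227 CPM in *Arg1* macrophages, 648 CPM in classical and 264 CPM in nonclassical monocytes of vehicle 2. *Gpnmb* was at 210 CPM in *Arg1* macrophages and 163 CPM in classical monocytes of vehicle 2, and nonclassical monocytes had no *Gpnmb* or *Spp1* UMI in any library. *Apoe* was at 3852 CPM in *Arg1* macrophages of vehicle 2, at 3250, 1738 and 3626 CPM in classical and at 3163, 3562 and 3624 CPM in nonclassical monocytes. Border-associated macrophages were only 3 cells in each library, with 70306, 9126 and 20862 UMIs in all. They held *Apoe* at 16201, 36489 and 43332 CPM and *Trem2* at 213, 767 and 336 CPM, so that *Trem2* rests on few UMIs. In vehicle 2, a macrophage of 17244 UMIs, the median of these cells, held 763 *Apoe* and 9 *Trem2* UMIs. It had 39 UMIs of microglia and 81 of macrophage markers, and its barcode was called in all 3 libraries. The part of microglial RNA in these cells was not tested.

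Cycling microglia were tested against the other microglia. *Cst7* and *Spp1* were higher in cycling microglia, on few cells, and *Abca1* was lower in a call that most alternatives did not keep. Microglia markers summed to 10585, 19569 and 14387 CPM in cycling microglia against 17822, 21721 and 22255 CPM in the others, and macrophage markers to 433, 166 and 206 CPM (9, 4 and 5 of 18 detected) against 291, 172 and 187 CPM. The part of these markers in the results was not tested. Of 8954 genes tested, 372 were higher (4.15%) and 259 lower (2.89%), and of the 9 genes of the group that were tested 2 were higher and 1 lower (*Gpnmb* was not tested). *Cst7* was at 177, 0 and 137 CPM in cycling microglia, against 46.9, 8.27 and 10.7 CPM in the others (log2 2.37, SE 0.40, adjusted p = 4.2e-07). *Spp1* was at 213, 0 and 22.9 CPM against 20.5, 23.6 and 1.33 CPM (log2 2.87, SE 0.45, adjusted p = 3.0e-08). Both were thus higher in 2 of 3 libraries and at 0 in the 3 cycling cells of niacin 1. *Abca1* was at 300, 99.7 and 103 CPM against 399, 318 and 285 CPM, lower in 3 of 3 libraries (log2 -0.90, SE 0.29, adjusted p = 0.035).

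Without vehicle 2 none of the 3 passed (adjusted p = 0.053 for *Cst7*, 0.94 for *Spp1* and 0.055 for *Abca1*), and *Abca1* also failed without niacin 1 (0.065) and without niacin 2 (0.58). In all, *Abca1* kept its call in 6 of 14 alternatives. With every shared barcode left out, which left 11, 1 and 6 cycling cells, *Cst7* had an adjusted p of 0.90, and with cells thinned to 2000 UMIs of 0.10. *Spp1* and *Cst7* rest on 64 and 53 UMIs in 3 and 8 cells of vehicle 2. *Trem2* (960, 1861 and 1771 CPM, log2 -0.31, adjusted p = 0.60) and *Tyrobp* (1556, 2359 and 2903 CPM, log2 0.15, adjusted p = 0.84) did not pass. *Apoe* ranged from 166 CPM in niacin 1 to 8102 CPM in niacin 2 among cycling cells and did not pass (adjusted p = 0.78), and *Lpl* had an adjusted p of 0.094. Of 24 other disease-associated microglia genes tested, 5 were higher and 1 lower, among them the integrin *Itgax* (log2 2.15) and the surface gene *Cd52* (log2 1.81), and *Cadm1* was lower (log2 -1.02). Of 17 TREM2 signaling genes, 0 were higher and 2 lower (*Cd33*, log2 -1.10, and *Pik3r1*, log2 -0.82). *Cd36* was the 1 of 6 uptake genes that was higher (log2 2.93), *Mgll* the 1 of 13 fatty acid genes that was lower (log2 -1.88), and none of 13 efflux or 9 cholesterol synthesis genes passed.

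To ask how the genes vary among microglia, the cells were thinned to 2000 UMIs and divided by whether they held a UMI of *Itgax*, *Axl*, *Cxcl13*, *Csf1* or *Igf1*, activation genes outside the 10. *Apoe* and *Lpl* were higher in the microglia with an activation gene UMI in all 3 libraries, while *Trem2* and *Abca1* did not pass the test. The groups held 59, 39 and 47 microglia with such a UMI and 199, 613 and 597 without. Of 4435 genes tested, 108 were higher (2.44%) and 36 lower (0.812%), and of the 6 genes of the group that were tested 3 were higher and 0 lower. *Apoe* rose from 671 to 2500 CPM in vehicle 2, from 949 to 9205 CPM in niacin 1 and from 1124 to 9798 CPM in niacin 2 (7.27-fold, log2 2.86, SE 0.14, adjusted p = 2.7e-35). *Lpl* rose from 40.2 to 84.7 CPM, from 13.9 to 154 CPM and from 14.2 to 74.5 CPM (5.01-fold, log2 2.33, SE 0.47, adjusted p = 0.00041). These levels rest on 10, 12 and 7 *Lpl* UMIs in the cells with an activation gene UMI and on 16, 17 and 17 in those without. The part of single cells in this was not tested. *Tyrobp* was higher by 1.32-fold (log2 0.40, SE 0.12, adjusted p = 0.038).

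*Trem2* was at 1158 CPM without and 1212 CPM with an activation gene UMI in vehicle 2, 1912 and 2513 CPM in niacin 1, and 2039 and 2266 CPM in niacin 2 (log2 0.24, SE 0.12, adjusted p = 0.40), and its sign turned in 4 of 16 alternatives. *Abca1* (log2 0.34, SE 0.17, adjusted p = 0.43) and *Gpnmb* (log2 1.68, SE 0.87, adjusted p = 0.44) did not pass either. *Ch25h*, too low to be tested, had 9, 3 and 10 UMIs in the microglia with an activation gene UMI and 1 UMI in each library in the far more numerous cells without. Few cells held it, as a separate random thinning to 2000 UMIs saw it in 1 of 258, 0 of 652 and 2 of 644 microglia. Among microglia with no macrophage marker UMI, *Ch25h* had 0 UMIs in both groups of each library. *Cst7* had 9, 2 and 1 UMIs in the first group and 9, 6 and 6 in the second.

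*Apoe* passed in 16 of 16 alternatives. *Lpl* could be tested in 12 alternatives and kept its call in 10, but not without niacin 1 (log2 1.67, adjusted p = 0.15). *Tyrobp* kept its call in only 5 of 16 alternatives, with adjusted p-values of 0.27 without niacin 1 and 0.74 without vehicle 2. The number of higher genes over the genome fell to 27 without vehicle 2 and to 10 without the library block. Macrophage markers summed to 271, 179 and 266 CPM in the microglia with an activation gene UMI and to 256, 157 and 188 CPM in those without, and median mitochondrial shares were 2.84%, 1.46% and 1.92% against 2.31%, 1.60% and 1.82%. Among microglia with no macrophage marker UMI, *Apoe* was still higher (log2 2.43, adjusted p = 0.00081, on 12, 18 and 18 cells with an activation gene UMI). A separate random thinning, with 20, 17 and 22 such cells, gave 925 against 550 CPM, 5794 against 868 CPM and 4659 against 879 CPM.

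**Figure D3:**
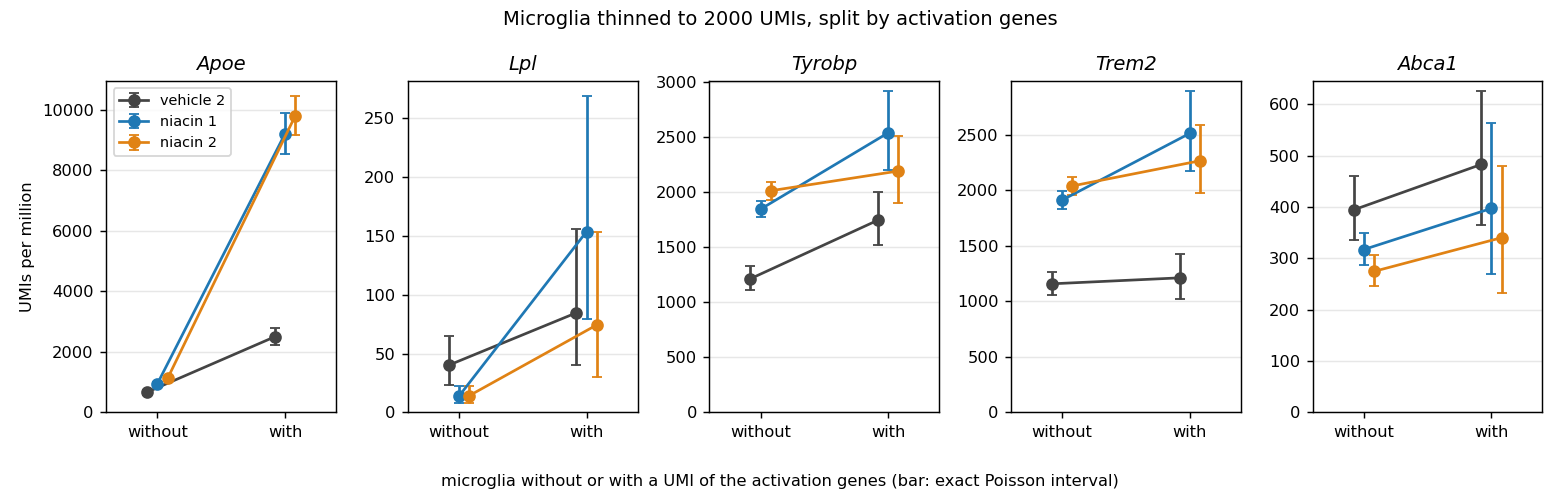
Level (CPM, linear axis from 0) of 5 genes in microglia without and with a UMI of the activation genes, after thinning to 2000 UMIs, with 1 line per library and exact Poisson intervals. *Apoe* and *Lpl* rise in all 3 libraries, from 671 to 2500 CPM for *Apoe* in vehicle 2, whereas *Trem2* and *Abca1* rise far less, and the intervals of *Abca1* overlap in each library.

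Of 18 other disease-associated microglia genes tested in this split, with the defining genes left out, 12 were higher and 0 lower (median log2 0.66 against -0.01 over all genes). The defining genes *Itgax*, *Axl*, *Csf1* and *Igf1* belong to this same list, so the count is a description and not independent support. The dendritic and microglial activation gene *Cd83* (235 ± 53.7 against 81.7 ± 10.1 CPM, log2 1.54) and *Cd52* (583 ± 137 against 225 ± 29.5 CPM, log2 1.41) changed most. None of 15 TREM2 signaling, 3 lipoprotein or 7 fatty acid genes passed, and of 8 efflux genes only the cholesterol-binding lysosomal gene *Npc2* was higher (log2 0.60). No cholesterol synthesis gene was abundant enough to be tested.

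*Lpl* and, in vehicle 2, *Cst7* were seen more often in microglia with an *Apoe* UMI than in those without. Of 94 thinned microglia of vehicle 2 with an *Apoe* UMI, 17.0% had an *Lpl* UMI and 13.8% a *Cst7* UMI, against 1.22% and 1.83% of the 164 without *Apoe*. In niacin 1 the shares for *Lpl* were 4.41% and 3.35%, and in niacin 2 they were 5.50% and 2.58%. For *Cst7* they were 1.47% and 0.223% in niacin 1 (3 and 1 cells) and 1.38% and 0.469% in niacin 2 (3 and 2 cells). These are too few cells to compare. How the libraries compare depended on the depth. Thinned to 4000 UMIs, the shares for *Lpl* with and without *Apoe* were 14.3% and 7.62% in vehicle 2, 9.64% and 3.77% in niacin 1, and 8.93% and 4.53% in niacin 2. *Trem2* was seen as often with *Apoe* as without, in 80.9% against 84.1% of cells in vehicle 2, 95.1% against 96.0% in niacin 1 and 95% against 94.6% in niacin 2. These shares describe cells of 1 library each and carry no test.

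For the rare genes a single cell could decide the level. In microglia of vehicle 2, 1 cell held 133 of 138 *Ch25h* UMIs (96.4%). That cell had 27067 UMIs in all, 74 of microglia and 32 of macrophage markers, and its barcode was called in all 3 libraries. A second cell of vehicle 2 held 66 of 92 *Gpnmb* UMIs (71.7%) and 72 of 107 *Fabp5* UMIs (67.3%), together with 228 *Apoe*, 28 *Lpl* and 27 *Abca1* UMIs. It had 84 UMIs of microglia and 5 of macrophage markers, and its barcode was also called in all 3 libraries. In niacin 2, all 18 *Gpnmb* UMIs lay in 1 cell (barcode called in 2 libraries) and 34 of 49 *Ch25h* UMIs in another (in 3). In niacin 1, 1 cell held 65 of 97 *Spp1* UMIs (67.0%), 41 of 137 *Lpl* UMIs and 907 *Apoe* UMIs, and its barcode too was called in 3 libraries. By contrast, the top cell held 1.61%, 0.669% and 0.497% of the *Trem2* UMIs of microglia. No doublet caller was run, and the part of doublets in these cells was not tested.

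**Figure D4:**
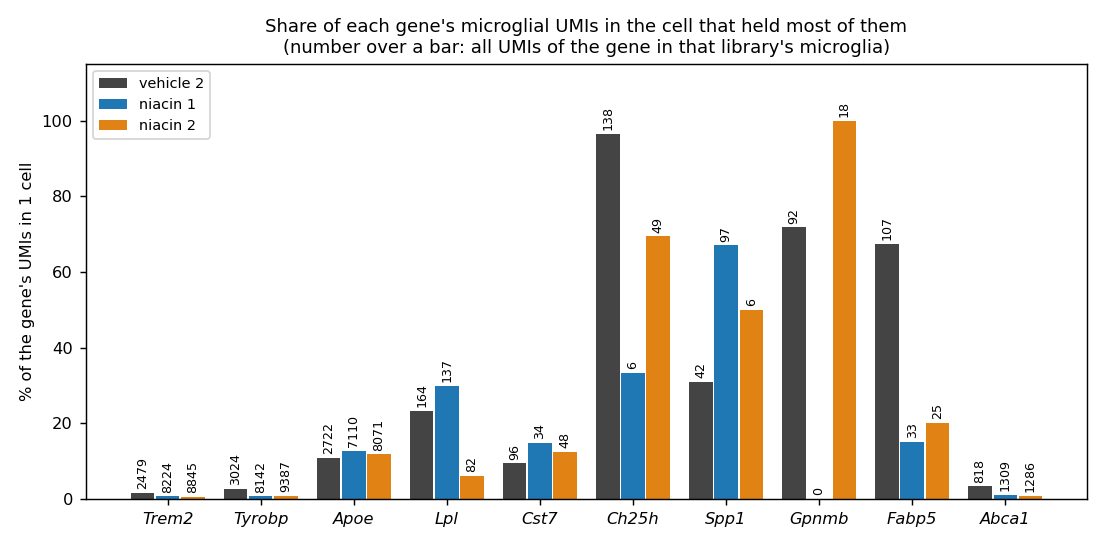
Share of each gene's UMIs in microglia that lay in the 1 cell with most of them (bars from 0, in percent), by library, with the gene's UMIs in that class above each bar. *Trem2*, *Tyrobp* and *Abca1* stay near 0, whereas *Ch25h* reaches 96.4% in vehicle 2 and *Gpnmb* 100% in niacin 2.

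The niacin and vehicle libraries were set side by side without a test. In microglia, *Trem2*, *Tyrobp* and *Apoe* were higher in both niacin libraries, and *Lpl*, *Cst7*, *Ch25h*, *Gpnmb* and *Fabp5* were lower by at least 2-fold in both. A mean of at least 10 CPM over the 3 libraries was reached by 8524 genes. Of these, 179 were lower by at least 2-fold in both niacin libraries (2.1%) and 113 higher (1.33%). The corresponding counts for the 10 genes were 5 and 0. *Cst7*, *Ch25h*, *Gpnmb* and *Fabp5* reached this mean only through vehicle 2, where they are high. In niacin 1 and niacin 2, *Cst7* was at 8.27 and 10.7 CPM and *Ch25h* at 1.46 and 10.9 CPM. There, *Gpnmb* was at 0 and 3.99 CPM and *Fabp5* at 8.03 and 5.55 CPM. The direction of these genes was thus nearly fixed by the minimum, and the counts are a description only. *Trem2* was higher by a log2 of 0.72 in niacin 1 (95% counting interval 0.66 to 0.79) and of 0.70 in niacin 2 (0.63 to 0.76), while the niacin libraries differed by -0.03. Over all genes, 4.13% were at least as much higher in both. *Tyrobp* was higher by 0.42 and 0.50 and *Apoe* by 0.38 and 0.43, and 11.8% and 13.9% of genes were as far up. The summed microglia markers were also higher in the niacin libraries, 21721 and 22255 against 17822 CPM, and the part of this and of the mitochondrial shares in the result was not tested. *Trem2* was higher by 0.65 and 0.62 in microglia with no macrophage marker UMI.

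*Cst7* was lower by a log2 of -2.50 and -2.14 in microglia of the niacin libraries, from 48 cells with a UMI in vehicle 2 to 20 in niacin 1 and 33 in niacin 2, although the niacin libraries held more microglia. Of the 8524 genes, 0.293% were as far down, a description only, since *Cst7* entered this set through vehicle 2. *Lpl* was lower by -1.27 and -2.14, and 1.06% of genes were as far down. *Abca1* was lower by -0.33 and -0.49, which 23.4% of genes matched. *Fabp5* was lower by -2.70 and -3.24, *Ch25h* by -5.53 and -2.63, and *Gpnmb* by at least -5.94 (0 UMIs) and by -3.49. *Spp1* went in different directions, 0.20 and -3.95.

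When the cell with most UMIs of a gene was left out of each library, 6 of the 10 genes kept a mean of at least 10 CPM. Of these, *Lpl* (-1.40 and -1.85) and *Cst7* (-2.59 and -2.19) were lower by 2-fold in both. *Ch25h* then had 5, 4 and 15 UMIs, *Gpnmb* 26, 0 and 0, and *Fabp5* 35, 28 and 20. With every shared barcode left out, *Cst7* was the one of 6 that was lower by 2-fold in both (-2.83 and -2.24), and *Lpl* was at -0.99 and -1.29. Under a stricter class rule, *Cst7*, *Gpnmb* and *Fabp5* were lower by 2-fold in both, *Lpl* was at -0.92 and -1.77, and *Ch25h* had 5, 4 and 49 UMIs. Among microglia with no macrophage marker UMI, *Cst7* was at -2.67 and -1.92 and *Lpl* at -0.25 and -0.50.

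**Figure D5:**
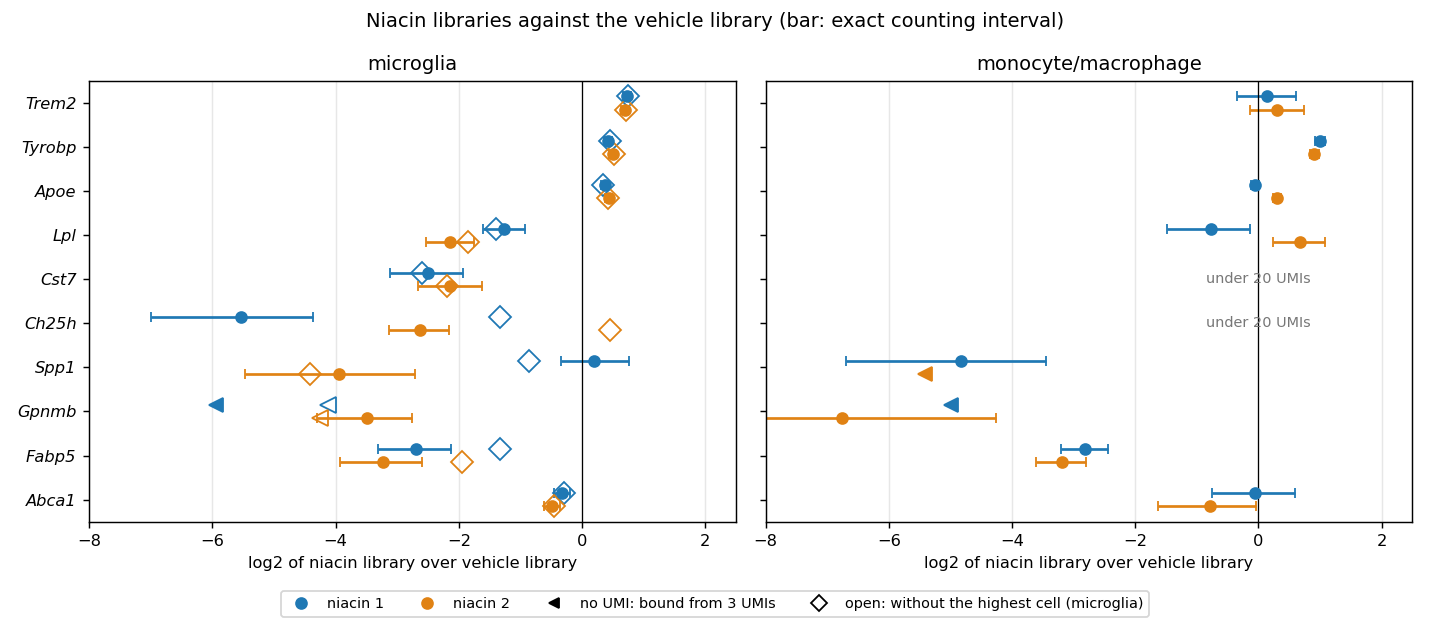
Log2 ratio of each niacin library over the vehicle library for each gene in microglia (left) and macrophages (right), with exact counting intervals, triangles for bounds from 3 UMIs where a library had none, and open symbols for ratios without the top cell (microglia only). The interval of *Gpnmb* in niacin 2 macrophages runs past the axis, and *Cst7* and *Ch25h* had under 20 UMIs in macrophages. In microglia *Trem2* lies at 0.72 and 0.70, and the open symbols of *Ch25h* and *Fabp5* lie much closer to 0 than the filled ones.

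In macrophages, *Spp1*, *Gpnmb* and *Fabp5* were lower by at least 2-fold in both niacin libraries, and 0 were higher by 2-fold in both. They were 3 of the 8 genes with a mean of at least 10 CPM. Of all 7621 genes, 8.78% were lower and 6.13% higher by 2-fold in both. *Spp1* and *Gpnmb* reached the mean of 10 CPM only through vehicle 2, so that their count carries no weight. *Fabp5* was lower by a log2 of -2.82 (-3.21 to -2.45) and -3.19 (-3.61 to -2.80). *Spp1* fell from 430 UMIs to 4 and 0 (-4.82 and at least -5.41), and *Gpnmb* from 363 UMIs to 0 and 1 (at least -4.99, and -6.75). All 3 stayed lower by 2-fold in both without the top cell of each library, and with shared barcodes left out, where *Apoe* became higher by a log2 of 1.28 and 1.17 in the niacin libraries (3351, 8144 and 7541 CPM). *Tyrobp* was higher by 1.00 and 0.91, which 7.28% of genes matched. *Trem2* (0.14 and 0.30), *Apoe* (-0.05 and 0.30) and *Lpl* (-0.78 and 0.67) differed less.

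The makeup of the macrophage class differed among the libraries too, and its part in these differences was not tested. Macrophages were 22.3% of kept cells in vehicle 2 and 5.38% and 4.52% in the niacin libraries, and *Arg1* macrophages were nearly all in vehicle 2. Without *Arg1* macrophages *Fabp5* was at -2.46 and -2.82, *Gpnmb* at least at -4.85 and at -6.59, and *Spp1* at -1.86 and at least at -2.44. Within classical monocytes *Fabp5* was at -1.55 and -2.38 and *Tyrobp* at 0.90 and 0.84, and within nonclassical monocytes *Fabp5* was at -1.62 and -1.78 and *Tyrobp* at 0.54 and 0.51. In classical monocytes *Spp1* was at 29.3, 34.1 and 0 CPM, on 41, 4 and 0 UMIs. Choroid plexus *Apoe* was higher by 1.45 and 1.19 in the niacin libraries.

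The other pathway genes gave fewer such differences in microglia. Of 24 other disease-associated microglia genes, 8 were lower by 2-fold in both niacin libraries (*B2m*, *Ank*, *Lgals3*, *Lilrb4a*, *Itgax*, *Axl*, *Csf1* and *Lgals3bp*) and 0 higher. None of 17 TREM2 signaling, 4 lipoprotein, 13 efflux, 7 cholesterol synthesis or 11 fatty acid genes passed 2-fold in both in either direction. In macrophages 9 of 23 disease-associated microglia genes were lower and 0 higher, and of 20 TREM2 signaling genes *Vav1*, *Malt1* and *Cd33* were lower and *Sirpb1a* higher. Of 14 fatty acid genes, *Ppard* and *Hilpda* were lower and *Fabp4*, *Fasn* and *Pparg* higher there, and of 15 efflux genes *Npc1*, *Npc2* and *Nceh1* were lower and *Pltp* higher. Over all genes, 2.1% were lower and 1.33% higher in microglia, and 8.78% and 6.13% in macrophages. The few signaling, fatty acid and efflux genes named for macrophages are therefore not read as a result about these pathways. The minimum of 10 CPM counts vehicle 2, so it favors genes that are high there. Microglial *Itgax* (20.9 ± 22.5 CPM) and *Lgals3* (21.7 ± 19.8 CPM) had means not far above it. In both classes the counts of disease-associated microglia genes are therefore a description only.

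Genes whose level was among the most like that of *Trem2* over 25 sums of class and library (12 classes, at least 100000 UMIs each) were *Rnase4* (Pearson r 0.958), *C1qb* (0.951), *C1qa* (0.946) and *Fcrls* (0.945). *Fcrls* is among the markers that defined microglia. Closest to *Apoe* were *Mt1* (0.920), *Bri3* (0.846), *Hsd17b12* (0.844), *Stx7* (0.843) and *Rtn4* (0.839), and closest to *Spp1* were *Cxcl9* (0.871), *Cxcl16* (0.846), *Gatm* (0.836), *Spint1* (0.801) and *Sdc3* (0.791). Among the 10 genes themselves, *Trem2* was most like *Abca1* (0.709) and *Ch25h* (0.688), with 0.406 for its adaptor *Tyrobp* and 0.454 for *Apoe*. These correlations are of log2(CPM + 10), and the sums share libraries and cell classes, so they describe these 3 libraries only.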

How the data were processed

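The authors made the deposited counts with Cell Ranger 3.1, which aligns reads with STAR, against mm10, and each value is a whole number of UMIs per gene and cell barcode. Barcodes under 200 detected genes or over 20% mitochondrial UMIs were dropped, which left 5528 of 6947, and 4270 were kept once shared barcodes were resolved, of which 340 stayed in no class. A class needed at least 3 marker UMIs from at least 2 marker genes and a 2-fold lead over the next of 17 lineages. The genes and the pathway lists were chosen with earlier results of these data known.

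UMIs were summed by class and library in Python 3.11.15 (numpy 2.4.6, scipy 1.17.1, pandas 2.3.3) and tested across all genes that passed edgeR's filter on low counts with edgeR 4.0.16 in R 4.3.3 (quasi-likelihood test, 3 libraries, threshold of 0.05 on the Benjamini-Hochberg adjusted p). DESeq2 1.42.0 was an alternative. The scripts were tested on simulated data. The p-values measure the spread between libraries, which may be technical. Cells were thinned to 2000 UMIs where groups differ in depth. Exact Poisson and Clopper-Pearson intervals (95%), and the floor of 3 counts used where a library had none, cover counting error only. Niacin was described against vehicle for genes with a mean of at least 10 CPM over the 3 libraries, without a test. Beyond the 10 genes, up to 2 higher and 2 lower list genes per comparison are named by size of change among those past the threshold with a mean of at least 20 CPM, and the lists of genes lower or higher in niacin are given as counted. Some genes that this rule names are not reported here. 5 alternatives were added after seeing the data, which leave out microglia with macrophage marker UMIs (in 3 comparisons), ask for 3 cell cycle genes, or leave out the cell with most UMIs of a gene. Figures were drawn with matplotlib 3.10.9.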

Additional observations from a re-analysis of the deposited data

Results flagged for a closer look

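*Lpl* and *Spp1* stood on different sides of 1 in the vehicle library and in both niacin libraries when microglia were set over macrophages. For *Lpl*, the microglial level divided by the macrophage level was 1.17 in vehicle 2, and microglia were lower than macrophages in niacin 1 (33.3 against 39.8 CPM) and niacin 2 (18.2 against 109 CPM). In niacin 2, 1 macrophage held 36 of the 71 macrophage *Lpl* UMIs, and its barcode was called in 3 libraries. For *Spp1*, the ratio was 0.105 in vehicle 2, and microglia were higher in niacin 1 (23.6 against 6.92 CPM) and niacin 2 (1.33 against 0 CPM), on 4 and 0 macrophage UMIs. With 1 vehicle library, neither difference between the groups was tested.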

How the results depend on the processing

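No paired analysis was possible because the vehicle and niacin groups share fewer than 2 replicate numbers. The block in the class comparisons is the library itself. Without this replicate block, 2226 genes were higher and 2162 lower in microglia than in macrophages, 254 higher and 137 lower in cycling microglia, and 10 higher and 0 lower in microglia with activation genes (edgeR, where the fit with the block had 537 genes at an unadjusted p under 0.05 and DESeq2 called 5 lower). Leaving out 1 library gave 1044 to 2795 genes higher and 1262 to 2569 lower in microglia than in macrophages, 55 to 577 higher and 32 to 364 lower in cycling microglia, and 27 to 76 higher and 3 to 29 lower with activation genes. Thinning to 2000 UMIs gave 1154 higher and 1181 lower against macrophages, and 8 and 7 in cycling microglia. In cycling microglia DESeq2 gave 150 and 109, and leaving out shared barcodes 14 and 2. In the activation split, DESeq2 gave 49 higher and 5 lower, at least 2 activation gene UMIs 44 and 9, every barcode kept 70 and 18, microglia without macrophage marker UMIs 7 and 1, shared barcodes left out 64 and 6, no filter 61 higher, thinning to 1000 UMIs 8 lower and thinning to 4000 UMIs 164 higher. Lower by 2-fold were 269 genes in microglia of niacin 2 on its own, and 1006 in macrophages of niacin 1 on its own.

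Signs turned for genes that had not passed a test, and for 2 of the genes lower with niacin. Against macrophages, *Spp1* was at 0.0605 with DESeq2, 0.16 without *Arg1* macrophages and 1.62 without vehicle 2, and at -3.11 without niacin 1. In cycling microglia, *Apoe* was at -0.17 with DESeq2, -0.26 with shared barcodes left out, -1.06 without niacin 2 and -0.07 without vehicle 2 (1.23 without niacin 1). *Fabp5* was at 0.37 without the block, 0.53 with shared barcodes left out and 0.25 without vehicle 2 (-0.64 without niacin 2). *Tyrobp* was at -0.19 with shared barcodes left out, -0.13 after thinning and -0.0419 without niacin 2 (0.29 without niacin 1), and *Ch25h* at 1.397 under the stricter class rule. In the activation split, *Trem2* was at -0.14 with at least 2 activation gene UMIs, -0.0944 without macrophage marker UMIs, -0.0064 under the stricter rule and -0.0278 after thinning to 1000 UMIs, and *Abca1* at -0.15 with shared barcodes left out. For niacin over vehicle in microglia, where both had been lower by 2-fold, *Ch25h* turned to 1.27 under the stricter rule and *Gpnmb* to 0.40 without macrophage marker UMIs. The causes were not tested. Over the 10 genes and the named list genes, 411 of 437 values kept direction and side of the threshold against macrophages, 155 of 209 in cycling microglia and 102 of 129 in the activation split. Depth limits what can be said of the 36 cycling microglia and of the rare genes.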
